A study of Labrus bergylta with 77 samples.

Results

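The step from BW6 to BW7 in ballan wrasse (Labrus bergylta), a stomachless fish reared to clean lice from farmed salmon, was followed in pools of whole larvae. Its members were all pools labelled BW7, the later stage, and all labelled BW6, which together make 24 of the 77 pools of the series. Each stage held 12 pools, 2 from each of the tanks B5 to B10, and the pools of a tank were averaged, so that 6 tanks at BW7 stood against the same 6 tanks at BW6. At BW7 the larvae were 79 or 80 days post hatch and measured 26.4 to 27.9 mm in standard length, and at BW6 they were 58 or 59 days post hatch and measured 16 to 16.5 mm. At both stages, tanks B5, B7 and B9 had been started on zooplankton (the plankton tanks) and tanks B6, B8 and B10 on rotifers and Artemia (the control tanks). Dry formulated feed was added in every tank at 40 days post hatch and given alone from 56 days, so larvae had been on dry feed alone for 23 to 24 days at BW7 and for 2 to 3 days at BW6. All larvae came from 1 brood stock of 30 females and 6 males. Age, length and time on dry feed all differ between the stages, so their parts in any difference cannot be told apart.

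After live feed, a fish larva has to take up, digest and grow on a formulated diet. In vertebrates, food intake favours digestive enzymes, lipid storage, cell division and connective tissue, whereas fasting raises ubiquitin ligases that mark muscle protein for breakdown and starts autophagy, the digestion of a cell's own parts in lysosomes. Over the same weeks of larval life, fish form bone, replace larval haemoglobins and build the B and T cells of adaptive immunity.

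Expression is given as TPM, the transcript abundance of a gene scaled to a fixed sum per library. A pool had 17993 to 18683 genes at 1 TPM or more at BW7 and 18112 to 19641 at BW6, and the 50 most abundant genes took 40.1 to 44% of all TPM at BW7 and 37.4 to 45.7% at BW6. Every pool correlated better, on average, with the other pools of its own stage than with those of the other stage. Pool R1 of tank B9 at BW6 stood apart, with a mean correlation across genes of 0.947 with its own stage, the lowest of the 24, so counts are also given without that BW6 tank. Spread between tanks of a diet was smaller at BW7, with a median SD of 0.131 on the log2 scale against 0.197 at BW6. Genes of lens, muscle, liver, pancreas, retina, skin and blood were all detected at both stages, as the label of whole larvae implies. In such bulk samples, fewer cells of a type and less RNA per cell cannot be told apart.

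Of 22028 genes tested, 2545 were higher and 5593 lower at BW7 (limma on log2(TPM + 1), Benjamini-Hochberg adjusted p under 0.05), which is 11.6% and 25.4% of the genes tested. A difference of at least 2-fold was found for 328 of the higher genes (1.49%) and for 440 of the lower ones (2.00%). All 6 tanks at BW7 lay above all 6 at BW6 in 6.26% of genes and below them in 15.7%. The balance of the directions depended on the scaling between libraries. The median log2 difference over all genes tested was -0.10 with TPM as deposited and 0.00 after median-of-ratios size factors, which called 4731 genes higher (21.5%) and 4365 lower (19.8%) at BW7. Both scalings called the same 2545 genes higher and the same 4281 lower. Log2 differences below are BW7 minus BW6 of log2(TPM + 1), each ± its standard error (SE), a scale that understates the change of low genes. The gene lists are described against the shares over all genes, and a list's direction is given where both scalings share it unless said otherwise.

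**Figure D1:**
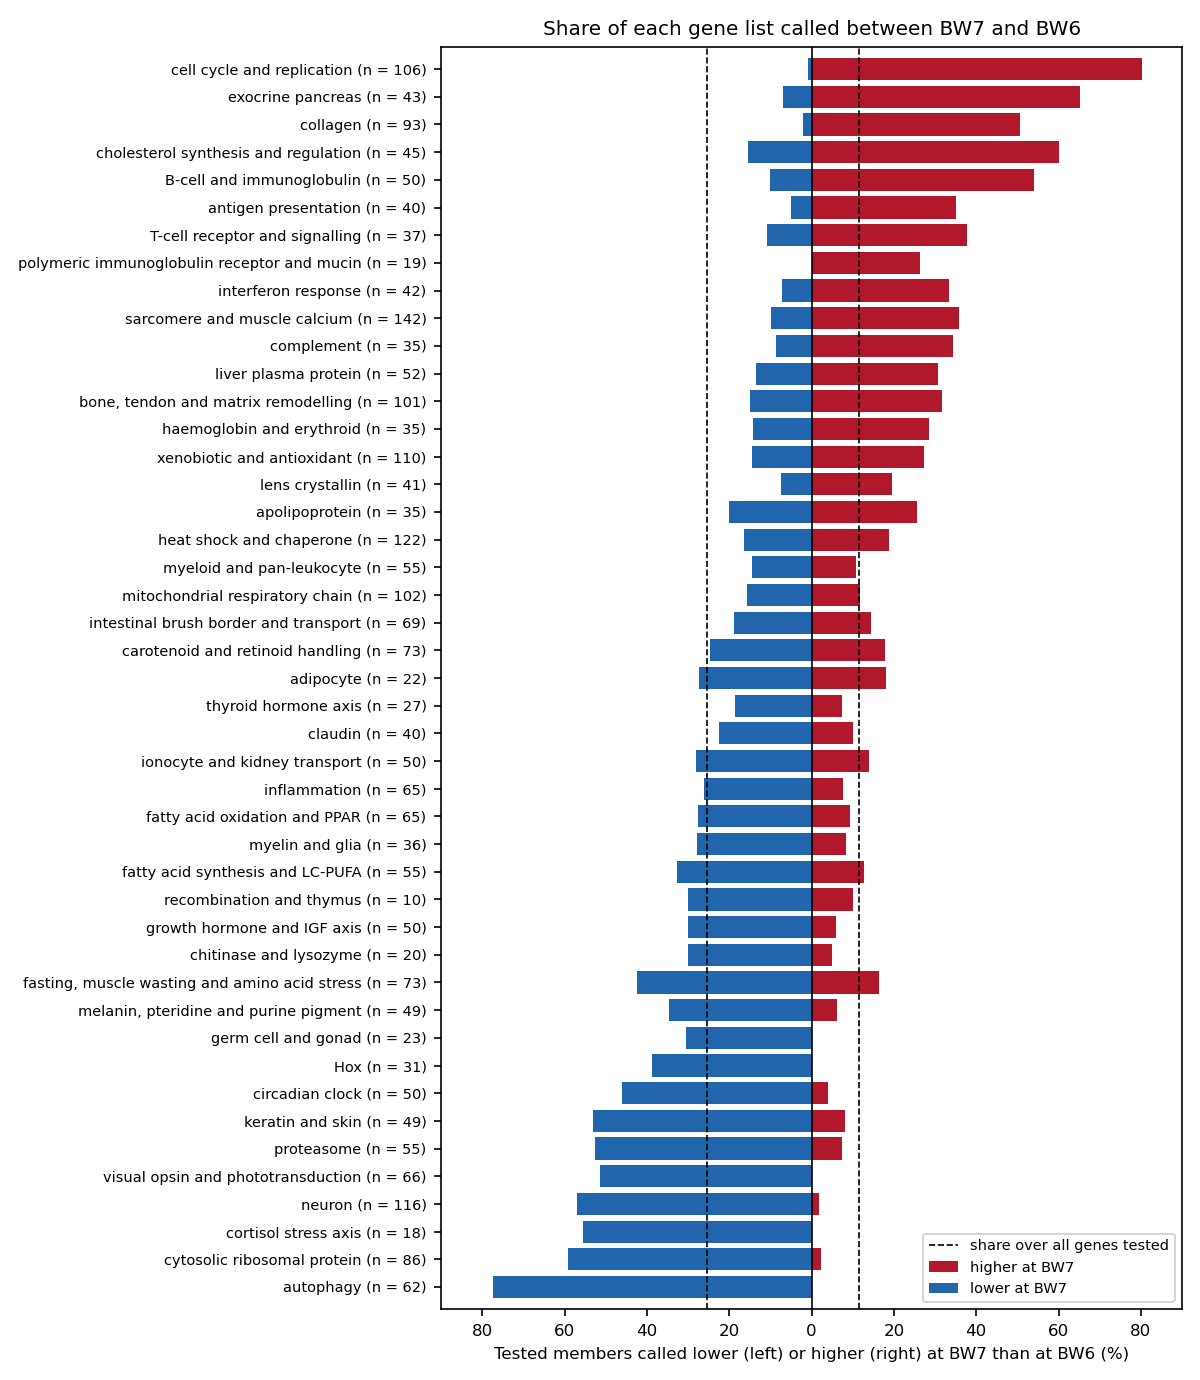
Share of tested members (horizontal axis, %) of each gene list that was called lower (blue, to the left) or higher (red, to the right) at BW7 than at BW6, with the number of tested members beside each name. Dashed lines mark the shares over all genes tested, 25.4% lower and 11.6% higher, and the lists run from cell cycle at the top to autophagy at the bottom. The autophagy and proteasome lists were put together after these differences had been seen, so their places only describe these data.

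Several of the largest falls among genes with a name were in genes of protein breakdown, autophagy and the fasting state. Only genes whose tanks did not overlap between the stages were ranked by size of rise or fall, so for them the lack of overlap was fixed by the choice. Genes without a name were not ranked, and at least 1 of them, LABE_00061859, fell further, by 5.40 on the log2 scale. FBXO32 (LABE_00001608), also called atrogin-1, part of a ubiquitin ligase that marks muscle protein for breakdown in mammals, stood at 3.87 to 8.01 TPM with a median of 5.44 at BW7, against 17.6 to 333 TPM with a median of 172 at BW6. The 2 stages did not overlap, although tank B6 at BW6 was far below the other BW6 tanks (log2 difference -4.32 ± 0.42, adjusted p = 1.86e-09). The kelch-family gene klhl38 (LABE_00001609) ranged over 0.125 to 0.466 TPM with a median of 0.323 at BW7, against 2.67 to 91.4 TPM with a median of 44.8 at BW6. Again no tank at BW7 reached the lowest tank at BW6, which was B6 (-4.63 ± 0.41, adjusted p = 2.83e-10). IGFBP1 (LABE_00004774), a secreted binding protein that holds insulin-like growth factors and rises on fasting in mammals, stood at 4.35 to 9.61 TPM with a median of 5.73 at BW7, against 26.6 to 102 TPM with a median of 83.3 at BW6, with no overlap (-3.34 ± 0.23, adjusted p = 1.16e-12). The gene ddit4 (LABE_00047372), an inhibitor of the growth kinase mTORC1, also had all BW7 tanks below all BW6 tanks (-2.82 ± 0.26, adjusted p = 1.12e-09).

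Of the fasting, muscle wasting and amino acid stress list, 31 of 73 tested members fell and 12 rose at BW7. The shares were 42.5% and 16.4%, against 25.4% and 11.6% of all genes. The list's median log2 difference was -0.25, against -0.10 over all genes. The 12 members that rose included genes of the amino acid stress response, among them atf4 (LABE_00002979, 0.39 ± 0.06, adjusted p = 1.05e-05), the transcription factor of that response, and chac1 (LABE_00013226, 1.27 ± 0.16, adjusted p = 2.77e-07), which breaks down glutathione and is a target of ATF4 in mammals. The mean of chac1 was 878 TPM at BW4, 764.5 at BW5, 118 at BW6 and 270 at BW7, so its BW7 level lay below those of BW4 and BW5. For atf4 the mean was 213 TPM at BW5 and 261 at BW7. Aldh18a1 (LABE_00051286), an enzyme of proline synthesis, rose by 1.23 on the log2 scale. PHGDH (LABE_00050022), of serine synthesis, at 0.74, and a second ddit4 gene (LABE_00010666, 0.75 ± 0.13, adjusted p = 2.55e-05) were also higher and were picked after their values had been seen. That ddit4 gene had averaged 5.725 TPM at BW5, against 4.553 at BW7. Asb13 (-3.40 ± 0.26), a gene of the SOCS-box family, and MLIP (-2.63 ± 0.21), a lamin-interacting muscle gene, were also among the 12 largest falls of genes with a name.

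Autophagy genes fell as a group, 77.4% of those tested against 25.4% of all genes. Of 62 tested members, 48 fell and none rose at BW7 (limma; 0 higher at an unadjusted p under 0.05), 16 of them by at least 2-fold, and the list's median was -0.64. This list, like that of the proteasome, was put together after these differences had been seen, so its count describes these data and supports nothing further. Tp53inp2 (LABE_00051595), which helps to form autophagosomes in mammals, stood at 13.7 to 24.9 TPM with a median of 16.6 at BW7, against 75.9 to 201 TPM with a median of 184 at BW6. No tank overlapped between the stages, and tank B6 was again the lowest at BW6 (-3.12 ± 0.20, adjusted p = 4.66e-13). The receptors that carry endoplasmic reticulum to autophagosomes in mammals, calcoco1 (LABE_00038357, -4.69 ± 0.43, adjusted p = 7.52e-10) and FAM134B (LABE_00070938, -2.88 ± 0.35, adjusted p = 9.96e-08), fell without overlap, calcoco1 by the largest difference of the genes with a name that fell without overlap and reached 5 mean TPM at BW6. ULK1 (LABE_00014530), the kinase that starts autophagy, fell by 2.22 on the log2 scale and atg2a (LABE_00019879), which moves lipid into the growing membrane, by 1.28. With size factors 44 of the 62 fell and 1 rose, and without tank B9 at BW6 43 fell.

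Of 55 tested proteasome members, 29 fell and 4 rose, 52.7% and 7.27%. The excess of falls over the 25.4% of all genes rested on 1 library. Without tank B9 at BW6 only 11 of the 55 fell, against 4580 of all 22028 genes, so no excess remained. The ubiquitin receptor ADRM1 (LABE_00001833) stood at 11.97 to 15.6 TPM with a median of 13.98 at BW7, against 21.5 to 217 TPM with a median of 53.4 at BW6, without overlap (-2.08 ± 0.27, adjusted p = 5.32e-07). The activator subunit psme4b (LABE_00014027) fell by 1.40 on the log2 scale. The cytosolic ribosomal proteins changed call with the scaling: 51 of 86 were lower at BW7 with TPM as deposited, and 4 with size factors. Rpl3 (LABE_00052464) was lower with both (-0.40 ± 0.05, adjusted p = 1.97e-07 as deposited), whereas rpl5-a (LABE_00001223, -0.31 ± 0.04 as deposited) had an adjusted p of 0.212 with size factors.

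**Figure D2:**
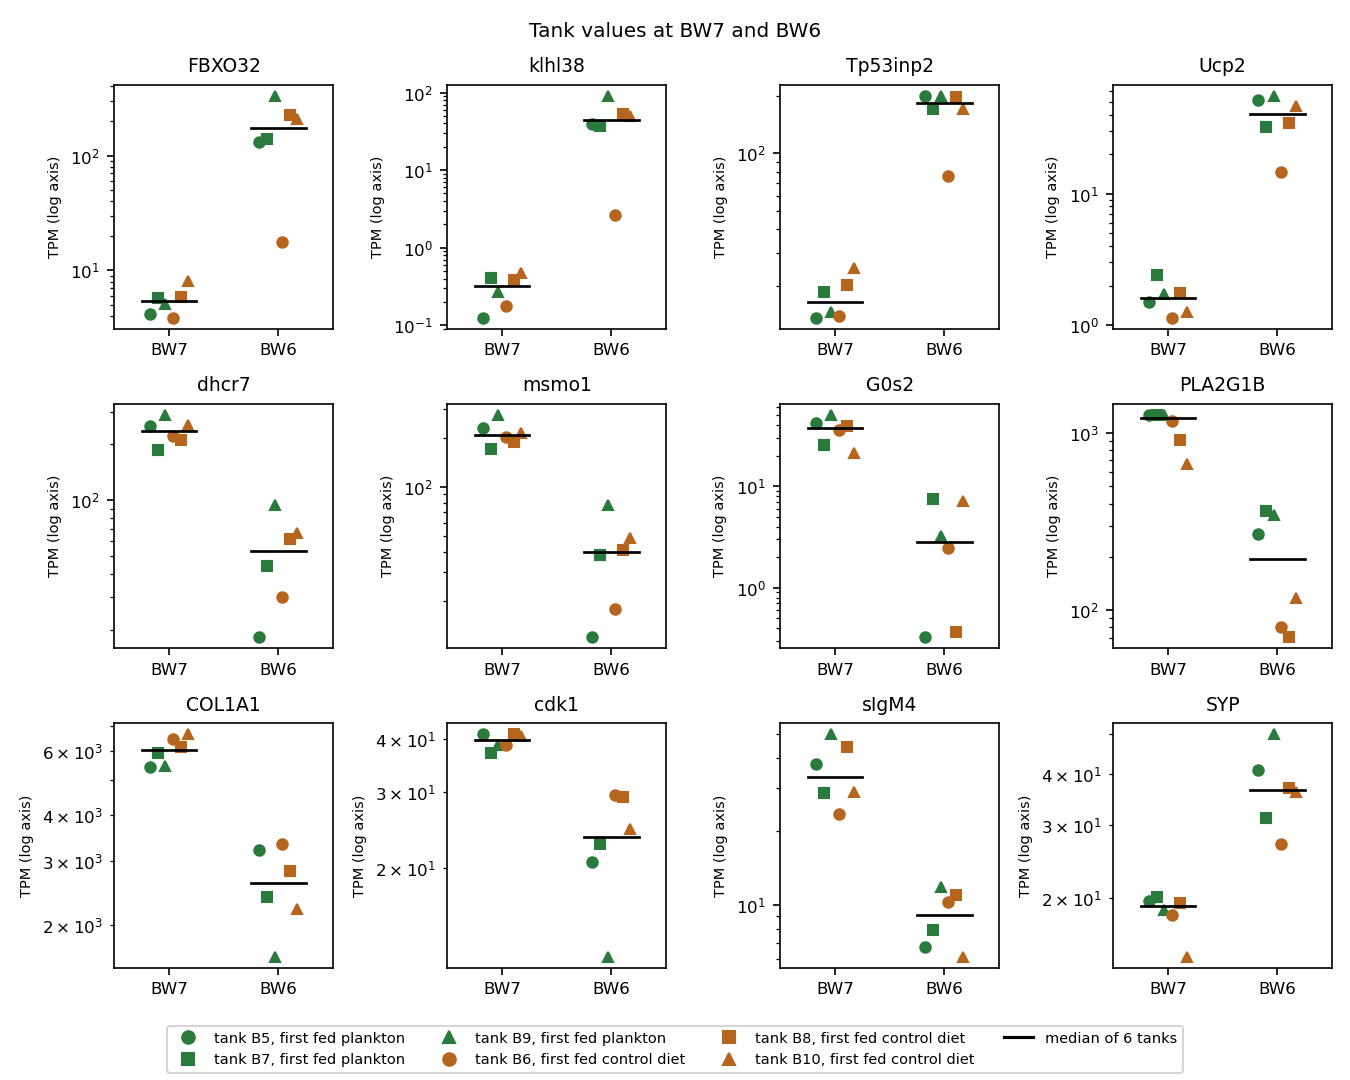
TPM on log axes of 12 named genes in the 6 tanks at BW7 (left) and at BW6 (right). Green symbols are plankton tanks, brown symbols control tanks, and black bars medians of 6 tanks. FBXO32, klhl38, Tp53inp2, Ucp2 and SYP lie lower at BW7 and the other genes higher, with no overlap between the stages in any panel. For genes named by size of change, among them FBXO32, klhl38, Ucp2 and PLA2G1B, the naming rule fixed this in advance. Tank B6 is the lowest at BW6 in the first 4 panels.

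The stage means place these differences among the earlier stages. FBXO32 averaged 12.9 TPM at BW4, 6.64 at BW5, 175 at BW6 and 5.48 at BW7. For Tp53inp2 the means were 40.4, 44.2, 169 and 17.7 TPM from BW4 to BW7. Both means were highest at BW6 among these 4 stages. In unfed BW0 larvae, however, FBXO32 had averaged 147.5 TPM and at BW2 88.7 TPM, so BW6 was not its only high stage. Nor was it for Tp53inp2, which had 102 to 160 TPM in the BW0 pools and 40.1 to 179 TPM in the BW2 tanks.

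The hormone genes that set growth moved in both directions. In the growth hormone and IGF list 15 of 50 tested members fell and 3 rose, against 25.4% and 11.6% of all genes. The growth hormone receptor GHR (LABE_00020448) stood at 8.09 to 13.2 TPM with a median of 9.47 at BW7, against 19.4 to 40.6 TPM with a median of 30.5 at BW6, with no overlap (-1.48 ± 0.16, adjusted p = 2.53e-08). The insulin receptor substrate Irs2 (LABE_00068483) fell by 1.38 on the log2 scale, and Igfals (LABE_00033235), which keeps IGFs in the circulation, rose by 0.91. In the cortisol stress axis none of 18 tested members rose by limma, none at an unadjusted p under 0.05 either. With size factors 8 fell and 1 rose. With TPM as deposited 10 fell, 55.6% against 25.4% of all genes. They included crh (LABE_00003258, -1.01 ± 0.19, adjusted p = 8.96e-05), the hypothalamic releasing hormone, and pomcb (LABE_00042606, -1.05 ± 0.24, adjusted p = 0.000969), precursor of ACTH, for which 1 BW7 tank lay above all BW6 tanks. Klf9 (LABE_00005176), a transcription factor that answers to glucocorticoid and thyroid hormones, stood at 4.98 to 10.5 TPM with a median of 7.29 at BW7, against 13.2 to 49.7 TPM with a median of 30.3 at BW6, with no overlap (-1.83 ± 0.28, adjusted p = 6.51e-06). The gene dio3 (LABE_00013199), whose enzyme inactivates thyroid hormone, fell as well (-2.06 ± 0.23, adjusted p = 3.5e-08), with tank B6 the lowest at BW6. In the thyroid hormone list 5 of 27 tested members fell and 2 rose, 18.5% and 7.41%, against 25.4% and 11.6% of all genes. One that rose was dio1 (LABE_00047440, 0.32 ± 0.10, adjusted p = 0.0144), for an enzyme that can activate the hormone. Its call was lost without tank B9 or B10, at both stages or at BW6 alone (adjusted p 0.0516 to 0.12), and in the fit of BW6 and BW7 alone with tank as replicate block (adjusted p = 0.0534).

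Sterol synthesis rose. Of 45 tested members of the cholesterol list, 27 rose and 7 fell, 20 rose by at least 2-fold, and the median was 0.91. The list's shares of 60% and 15.6% stood against 11.6% and 25.4% of all genes. The gene msmo1 (LABE_00042040), for an enzyme that removes methyl groups from sterols, stood at 169.5 to 275 TPM with a median of 209 at BW7, against 12.1 to 77.3 TPM with a median of 39.8 at BW6. Every tank at BW7 was above every tank at BW6, where B5 was the lowest (2.90 ± 0.24, adjusted p = 9.04e-11). Other enzymes of sterol synthesis rose without overlap, Lss (LABE_00014906) by 2.66, dhcr7 (LABE_00056726) by 2.47 and Hsd17b7 (LABE_00004083) by 1.71 on the log2 scale. Npc1l1 (LABE_00014401), which takes cholesterol up from the gut, also rose (1.71 ± 0.19, adjusted p = 2.6e-08). Genes of efflux and of its control fell, ABCA1 (LABE_00072850, -1.08 ± 0.19, adjusted p = 4.35e-05), the exporter, and Nr1h3 (LABE_00034552, -0.42 ± 0.08, adjusted p = 0.000192), the receptor LXR alpha that induces it in mammals.

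In the adipocyte list 4 of 22 tested members rose and 6 fell, 18.2% and 27.3%, against 11.6% and 25.4% of all genes. Its falls were thus near the share over all genes. G0s2 (LABE_00044428), an inhibitor of the triglyceride lipase ATGL in mammals, showed the largest rise of the named genes, with 21.1 to 50.5 TPM with a median of 37.6 at BW7, against 0.326 to 7.58 TPM with a median of 2.85 at BW6. The stages did not overlap (3.49 ± 0.28, adjusted p = 5.65e-11). The gene of that lipase, Pnpla2 (LABE_00005619), stood at 2.88 to 4.37 TPM with a median of 3.63 at BW7, against 7.80 to 23.3 TPM with a median of 13.3 at BW6, also without overlap (-1.60 ± 0.19, adjusted p = 5.74e-08). Cidec (LABE_00007901), a lipid droplet protein, rose by 1.14, whereas LPL (LABE_00026293), which frees fatty acids from circulating lipoproteins, fell by 1.37 and Acsl5 (LABE_00010600), which activates fatty acids, by 1.48 on the log2 scale. The carrier gene Ucp2 (LABE_00009211), named for uncoupling protein 2, stood at 1.14 to 2.43 TPM with a median of 1.62 at BW7, against 14.5 to 55.8 TPM with a median of 40.5 at BW6. This was the largest fall within the fatty acid oxidation list, and no tank overlapped (-3.81 ± 0.23, adjusted p = 1.89e-13). A second copy so named (LABE_00007048) fell by 1.77. Of the 65 tested members of that list 18 fell and 6 rose, near the shares over all genes. Hadh (LABE_00006961), an enzyme of beta-oxidation, was among those that fell (-0.48 ± 0.05, adjusted p = 5.6e-09).

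The gene mid1ip1b (LABE_00018405), partner of acetyl-CoA carboxylase in fatty acid synthesis, stood at 144 to 424 TPM with a median of 305 at BW7, against 12.4 to 110.5 TPM with a median of 24.2 at BW6. Its stages did not overlap (3.36 ± 0.39, adjusted p = 6.22e-08), yet at BW5 it had averaged 1165 TPM, more than at BW7. Its rise was 1.97 in plankton and 4.75 in control tanks, a difference that limma did not call (-2.78 ± 0.78, adjusted p = 0.299). Of 55 tested members of the fatty acid synthesis list 7 rose and 18 fell, 12.7% and 32.7%, against 11.6% and 25.4% of all genes. With size factors 17 rose and 16 fell, so the list had no direction that both scalings shared.

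Pancreatic enzymes were higher at BW7. Of 43 tested exocrine pancreas members 28 rose, 26 of them by at least 2-fold, and 3 fell. Their shares of 65.1% and 6.98% stood against 11.6% and 25.4% of all genes. The list's median log2 difference was 1.33 and its summed level was 16778 to 33950 TPM with a median of 28850 at BW7, against 4545 to 24183 TPM with a median of 9784 at BW6, so the sums overlapped. PLA2G1B (LABE_00009956), pancreatic phospholipase A2, stood at 669.8 to 1264 TPM with a median of 1216 at BW7, against 70.5 to 363 TPM with a median of 194 at BW6. The stages did not overlap, and within BW6 the 3 control tanks were below the 3 plankton tanks (2.75 ± 0.21, adjusted p = 2.85e-11). The proteases Cela3b (LABE_00001000, 2.53 ± 0.21, adjusted p = 7.76e-11) and CTRC (LABE_00039923, 2.20 ± 0.19, adjusted p = 2.33e-10) rose as well. A fall of Cuzd1 (LABE_00068475), a zymogen granule protein, had an adjusted p of 0.023 and lost its call without any 1 of the tanks B5, B6, B7 and B8 and without BW6 tank B6 (adjusted p 0.0509 to 0.074). PLA2G1B had averaged 1291 TPM at BW5, so its BW7 level lay near that of BW5.

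Other digestive and transport genes showed no common direction. In the intestinal list 10 of 69 tested members rose and 13 fell, shares of 14.5% and 18.8%, against 11.6% and 25.4% of all genes. With size factors 20 rose and 11 fell, so this list too had no direction that both scalings shared. The brush border amino acid transporter SLC7A9 (LABE_00000286) fell (-1.54 ± 0.15, adjusted p = 2.31e-09), whereas pyya (LABE_00046718, 1.26 ± 0.14, adjusted p = 2.07e-08), a peptide YY gene, and Slc26a3 (LABE_00041982, 1.28 ± 0.14, adjusted p = 3.03e-08), an exchanger of chloride and bicarbonate, rose. In the chitinase and lysozyme list 6 of 20 tested members fell and 1 rose, 30% and 5%, against 25.4% and 11.6% of all genes. The member that rose and 1 of those that fell are both named Chia, for acidic chitinase: LABE_00058258 stood at 5.38 to 24.5 TPM with a median of 17.1 at BW7, against 28.9 to 61.1 TPM with a median of 41.4 at BW6, and LABE_00082067 at 3.20 to 28.5 TPM with a median of 20.5 at BW7, against 0 to 0.805 TPM with a median of 0.222 at BW6. Neither pair of stages overlapped (log2 differences -1.61 ± 0.18 and 3.29 ± 0.33). In the list of ionocyte and kidney transport 7 of 50 tested members rose and 14 fell. These shares of 14% and 28% were near the 11.6% and 25.4% over all genes. Of those that rose, the phosphate carrier Slc34a2 (LABE_00001002) and the kidney gene UMOD (LABE_00075595) did so by 2.15 and 1.19 on the log2 scale.

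Genes of cell division rose together. Of 106 tested cell cycle members 85 rose and 1 fell, with a median of 0.48, and 73 rose without tank B9 at BW6. Shares with all tanks were 80.2% and 0.943%, against 11.6% and 25.4% of all genes. The mitotic kinase cdk1 (LABE_00024796) stood at 37.03 to 40.9 TPM with a median of 39.6 at BW7, against 12.5 to 29.6 TPM with a median of 23.7 at BW6. No tank overlapped, and B9 was the lowest at BW6 (0.82 ± 0.13, adjusted p = 1.01e-05). ESPL1 (LABE_00038418), the separase that parts sister chromatids, rose by 1.32 and MCM2 (LABE_00061151), part of the replication helicase, by 0.75. The mean of cdk1 was 46.5 TPM at BW5 and 39.4 at BW7, and that of ESPL1 was 28.8 TPM at both. Their BW7 levels were thus not above those of BW5. The member that fell was the centromere gene cenpp (LABE_00010276, -0.40 ± 0.09, adjusted p = 0.000374).

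Matrix and skeleton genes rose too. In the collagen list 47 of 93 tested members rose and 2 fell, 50.5% and 2.15%, against 11.6% and 25.4% of all genes. Its summed level was 18012 to 22700 TPM with a median of 20522 at BW7. At BW6 the sum was 6509 to 12997 TPM with a median of 10335. COL1A1 (LABE_00059855), an alpha chain of the type I collagen of skin, bone and tendon, stood at 5423 to 6657 TPM with a median of 6025 at BW7, against 1640.2 to 3335 TPM with a median of 2602 at BW6. The stages did not overlap, and B9 was the lowest at BW6 (1.28 ± 0.13, adjusted p = 7.41e-09). COL6A2 (LABE_00049440) rose by 1.17, and so did genes that fold and modify collagen, SERPINH1 (LABE_00037242) by 1.19, PLOD1 (LABE_00009561) by 1.03 and P4HA1 (LABE_00034237) by 0.97 on the log2 scale. The bone, tendon and matrix list had 32 of 101 tested members higher and 15 lower. Its shares were 31.7% and 14.85%, against 11.6% and 25.4% of all genes. The collagenase MMP13 (LABE_00011342, -1.47 ± 0.15, adjusted p = 4.35e-09) and the small proteoglycan FMOD (LABE_00008212, -1.15 ± 0.20, adjusted p = 2.68e-05) fell. Both genes named bglap, for osteocalcin, were looked up after their values had been seen: LABE_00062405 stood at 713 to 1175 TPM with a median of 1018 at BW7, against 85.9 to 302 TPM with a median of 229 at BW6 (2.36 ± 0.30, adjusted p = 2.85e-07), whereas LABE_00065594 was lower at BW7 (-1.05 ± 0.20, adjusted p = 0.000115).

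Muscle genes leaned upward by count, but not in their summed level. Of 142 tested sarcomere members 51 rose and 14 fell, 35.9% and 9.86%, against 11.6% and 25.4% of all genes (71 rose and 11 fell with size factors). The list's sum was 162517 to 172668.5 TPM with a median of 170170 at BW7. At BW6 it was 142030 to 191592 TPM with a median of 178858, so the sums overlapped. An alpha cardiac actin gene (LABE_00027498) stood at 298 to 505 TPM with a median of 338 at BW7, against 17.6 to 56.03 TPM with a median of 36.2 at BW6, and an acta1 gene (LABE_00008958) at 1965 to 2365 TPM with a median of 2149.9 at BW7, against 124.0 to 454 TPM with a median of 393 at BW6. Neither overlapped between the stages (3.43 ± 0.20 and 2.81 ± 0.26), but how reads were divided among near-identical actin copies is not known. The muscle methyltransferase SMYD1 had 1 copy that rose (LABE_00009732, 0.95 ± 0.11, adjusted p = 4.36e-08) and 1 that fell (LABE_00028319, -0.58 ± 0.08, adjusted p = 1.13e-06). The myogenic factor myf6 (LABE_00043132) fell by 1.28 and Jph1 (LABE_00048623), which couples muscle membranes for calcium release, by 0.83.

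**Figure D3:**
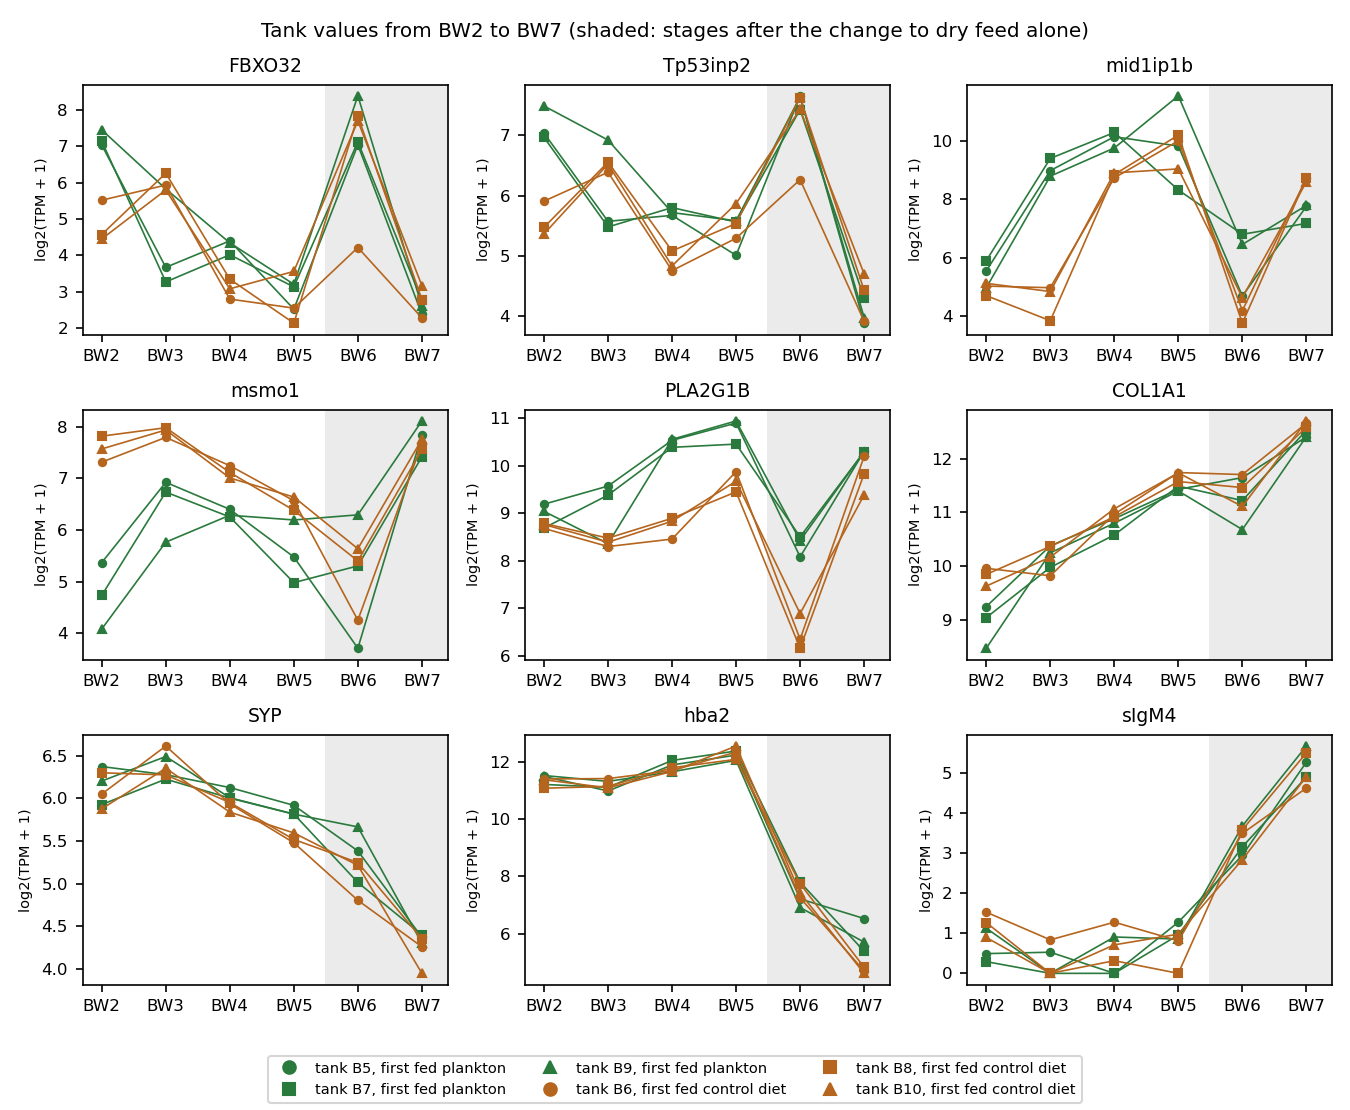
log2(TPM + 1) of 9 named genes in each tank from BW2 to BW7, joined by lines, with plankton tanks in green, control tanks in brown and the stages on dry feed alone shaded. FBXO32 and Tp53inp2 are higher at BW6 than at BW5 or BW7 in every tank, mid1ip1b, msmo1 and PLA2G1B are lower at BW6 than at BW5 and BW7, except msmo1 in tanks B7 and B9, where BW5 is lower, sIgM4 and COL1A1 are highest at BW7, and SYP and hba2 are lowest at BW7.

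Immunoglobulin genes rose. In the B-cell list 27 of 50 tested members rose and 5 fell, 54% and 10%, against 11.6% and 25.4% of all genes. Its median log2 difference was 0.28. The sequences below carry the submitters' own names, and how those were built is not given in the sources used here. The sequence sIgM4, named for secreted IgM, stood at 23.7 to 49.95 TPM with a median of 33.3 at BW7, against 6.15 to 11.8 TPM with a median of 9.08 at BW6. No tank overlapped (1.84 ± 0.21, adjusted p = 3.77e-08). IgM123 stood at 18.4 to 29.5 TPM with a median of 22.4 at BW7, against 5.12 to 12.8 TPM with a median of 7.003 at BW6, also without overlap (1.44 ± 0.19, adjusted p = 5.88e-07), and TM-IgM, named for the membrane form, rose with overlapping tanks (1.09 ± 0.28, adjusted p = 0.0024). The IgD sequences IgD6, TM-IgD, sIgD and IgD1234 rose by 1.86, 1.15, 1.03 and 0.99 on the log2 scale.

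IgT, the isotype tied to mucosal surfaces in teleosts, was less even between tanks. TM-IgT stood at 2.07 to 12.02 TPM with a median of 9.07 at BW7, against 0.627 to 5.08 TPM with a median of 3.37 at BW6. The ranges overlapped, and the difference was called (1.35 ± 0.26, adjusted p = 0.000137). IgT1234 rose by 0.48 (adjusted p = 0.00907), a call lost without tank B5 or B6 and without BW6 tank B5 (adjusted p 0.0524 to 0.0986). The call was also lost with BW6 and BW7 alone, without tank as replicate block (adjusted p = 0.0729) and with it (adjusted p = 0.0744). For sIgT, listed at 0 in the lowest tank of each stage, the difference was 0.42 ± 0.44, adjusted p = 0.494. Without tank B9 it was 1.15 and called (adjusted p = 0.0358), as it was with pool R2 alone at 1.30 (adjusted p = 0.0331), and without tank B5 it was -0.27 and not called. CD38 (LABE_00077277), a surface enzyme of plasma cells, rose by 1.06, and the plasma cell factor XBP1 (LABE_00021564), which many secretory cells also use, fell (-0.58 ± 0.13, adjusted p = 0.000831). The gene pax5 (LABE_00039509), a B-cell factor, had at most 0.0441 TPM at BW7 and 0.105 TPM at BW6, and Ciita (LABE_00061897), which turns on MHC class II, at most 0.644 and 0.369 TPM; neither passed the filter on low values.

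T-cell genes rose in part. Of 37 tested members 14 rose and 4 fell, 37.8% and 10.8%, against 11.6% and 25.4% of all genes. CD3G (LABE_00037000), a chain of the T-cell receptor complex, stood at 13.1 to 27.1 TPM with a median of 17.6 at BW7, against 5.78 to 14.1 TPM with a median of 9.26 at BW6. The ranges overlapped slightly (0.85 ± 0.14, adjusted p = 9.2e-06). The signalling kinases Lck (LABE_00038199) and ZAP70 (LABE_00004857) rose by 0.60 and 0.59, and the co-receptor CD4 (LABE_00045679) by 0.58 on the log2 scale. The receptor chain Tcra rose by 0.45 (adjusted p = 0.0175) and Tcrd fell by 0.35 (adjusted p = 0.0304), but neither held when single tanks were left out. For Tcra the adjusted p was 0.0513 to 0.122 without tank B8 or B10, without BW7 tank B7 or B8, or without BW6 tank B5 or B8. It was 0.101 in the fit of BW6 and BW7 alone and 0.558 with pool R1 alone. For Tcrd the adjusted p was 0.0533 to 0.185 without any of the tanks B6 to B9, or without BW7 or BW6 tank B6, B8 or B9. In the fit of BW6 and BW7 alone it was 0.0687 without tank as replicate block and 0.153 with it. The T-cell factor BCL11B (LABE_00020684), which neurons and skin also use in mammals, fell (-0.57 ± 0.11, adjusted p = 0.000164).

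The recombination genes of lymphocyte receptors were not called, rag1 (LABE_00002509) at 0.27 ± 0.15, adjusted p = 0.165 and rag2 (LABE_00002510) at 0.18 ± 0.12, adjusted p = 0.278. With size factors both were called higher, at adjusted p = 0.0274 and 0.036, and rag2 also without tank B9 (0.036) and without BW6 tank B9 (0.0443). With pool R2 alone rag2 was called at 0.40 (adjusted p = 0.0256), and with pool R1 alone it was -0.05 and not called. The thymic epithelial factor Foxn1 (LABE_00027051) stood at 1.42 to 2.60 TPM with a median of 1.59 at BW7, against 1.68 to 4.81 TPM with a median of 2.96 at BW6. It fell with overlapping tanks (-0.57 ± 0.12, adjusted p = 0.000543). Genes named CCL25, for a chemokine of thymus and gut in mammals, parted: LABE_00000745 rose (0.55 ± 0.15, adjusted p = 0.00354) and LABE_00026307 was lower (-0.60 ± 0.18, adjusted p = 0.00861), the second not with size factors (adjusted p = 0.0616).

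Antigen presentation genes leaned upward. Of 40 tested antigen presentation members 14 rose and 2 fell, 35% and 5%, against 11.6% and 25.4% of all genes. The immunoproteasome subunit psmb9 (LABE_00065429) stood at 18.03 to 24.3 TPM with a median of 21.2 at BW7, against 8.29 to 12.1 TPM with a median of 9.37 at BW6, without overlap (1.03 ± 0.15, adjusted p = 4.14e-06). CD40 (LABE_00081267), a receptor of antigen-presenting cells, rose by 0.78, and their activation marker CD83 (LABE_00056791) fell by 0.86. Of the genes named CD74, for the invariant chain of MHC class II, LABE_00050764 reached an adjusted p of 0.045, which was over 0.05 in 16 of 28 alternatives, and LABE_00038649 was not called (0.57 ± 0.27, adjusted p = 0.101). The second was called higher with size factors (adjusted p = 0.0296) and in the fit of BW6 and BW7 alone, without tank as replicate block (0.00595) and with it (0.0139). For the first the adjusted p was 0.0503 to 0.161 without tank B5, B8, B9 or B10, without any 1 tank at BW7, and without BW6 tank B5, B8 or B10. In the list of the polymeric immunoglobulin receptor and mucins 5 of 19 tested members rose and none fell by limma, none at an unadjusted p under 0.05 either. The share that rose was 26.3%, against 11.6% of all genes. The receptor sequence 492pIgR, named for the polymeric immunoglobulin receptor that carries antibodies across epithelia, stood at 7.60 to 10.7 TPM with a median of 9.27 at BW7, against 3.13 to 7.30 TPM with a median of 4.82 at BW6. It did not overlap (0.81 ± 0.14, adjusted p = 1.94e-05), and pIgRlike was not called (0.03 ± 0.11, adjusted p = 0.883). A gene of the gel-forming mucin MUC5B (LABE_00087749) rose by 1.06.

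Innate genes went both ways, though the complement and interferon lists leaned upward. In the interferon response list 14 of 42 tested members rose and 3 fell (23 and 2 with size factors). These shares were 33.3% and 7.14%, against 11.6% and 25.4% of all genes. In the complement list 12 of 35 tested members rose and 3 fell (16 rose and 0 fell by limma with size factors, 3 fell at an unadjusted p under 0.05; 1 fell without tank B9 at BW6), with c3 (LABE_00060404, 1.21 ± 0.24, adjusted p = 0.00018), the central component, and Masp1 (LABE_00070463, 0.84 ± 0.09, adjusted p = 1.01e-08), a protease of the lectin pathway, among those that rose. The inflammation list had 5 of 65 higher and 17 lower, 7.69% and 26.2%, close to the shares over all genes for the falls. A CXCL8 gene (LABE_00028950), for a chemokine that draws neutrophils, stood at 1.91 to 3.17 TPM with a median of 2.64 at BW7, against 3.98 to 32.5 TPM with a median of 19.97 at BW6, without overlap (-2.08 ± 0.24, adjusted p = 5.36e-08). Its log2 difference was -1.22 in plankton and -2.93 in control tanks, a gap that limma did not call (1.71 ± 0.48, adjusted p = 0.292). Another CXCL8 gene (LABE_00028951) was higher at BW7 with overlapping tanks (0.69 ± 0.24, adjusted p = 0.024), a call lost without tank B5, B6, B8, B9 or B10, without BW7 tank B5 or B10 and without BW6 tank B8 or B9 (adjusted p 0.0501 to 0.0938). The hepcidin gene hamp1 (LABE_00015416), for the peptide hormone that limits iron release, stood at 6.03 to 15.1 TPM with a median of 9.45 at BW7, against 52.2 to 122 TPM with a median of 86.8 at BW6, also without overlap (-2.95 ± 0.16, adjusted p = 2.8e-14). In the myeloid and pan-leukocyte list 6 of 55 tested members rose and 8 fell (13 and 7 with size factors). Their shares were 10.9% and 14.55%, against 11.6% and 25.4% of all genes, so the rises were near the share over all genes. The macrophage receptor MRC1 (LABE_00048734) fell by 1.51 with slightly overlapping tanks, CORO1A (LABE_00039331), an actin-binding protein of leukocytes, rose without overlap (0.40 ± 0.12, adjusted p = 0.0101), and the pan-leukocyte gene ptprc (LABE_00004890) was higher at an adjusted p of 0.0359, over 0.05 in 13 of 28 alternatives. It was 0.053 to 0.134 without tank B5, B8, B9 or B10 at both stages, at BW7, or, B9 apart, at BW6. The lectin gene named Ladderlectin (LABE_00053483) stood at 457 to 757 TPM with a median of 737 at BW7, against 40.5 to 135.1 TPM with a median of 111 at BW6, and Natterin-3 (LABE_00070810) at 291 to 616 TPM with a median of 466 at BW7, against 41.6 to 107 TPM with a median of 77.5 at BW6. Both rose without overlap (2.94 ± 0.37 and 2.65 ± 0.21).

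Genes of neurons and the retina made up a smaller share of the RNA at BW7. Of 116 tested neuron members 66 fell and 2 rose, with a median of -0.42, and 52 fell without tank B9 at BW6. Shares with all tanks were 56.9% and 1.72%, against 25.4% and 11.6% of all genes. SYP (LABE_00001780), the synaptic vesicle protein synaptophysin, stood at 14.4 to 20.1 TPM with a median of 19.1 at BW7, against 26.95 to 49.8 TPM with a median of 36.6 at BW6. The stages did not overlap (-0.95 ± 0.11, adjusted p = 3.75e-08). CPLX1 (LABE_00052657), a complexin of vesicle release, fell by 0.79. In the myelin and glia list 10 of 36 tested members fell and 3 rose. These shares of 27.8% and 8.33% were near the 25.4% and 11.6% over all genes, and with size factors 8 fell and 8 rose. The glial filament gene gfap (LABE_00059242) fell by 0.66, whereas Pmp22 (LABE_00010455), a myelin protein of peripheral nerves, rose by 0.64 and FABP7 (LABE_00053324), a lipid carrier of radial glia, by 0.70, both without overlap. None of 66 tested photoreceptor members rose by limma, none at an unadjusted p under 0.05 either. Of the 66, 34 fell, 51.5% against 25.4% of all genes (25 fell without tank B9 at BW6). They included the green opsin opn1mw4 (LABE_00064355) at -1.35, a red-sensitive opsin (LABE_00074842) at -1.19 and the cone transducin GNAT2 (LABE_00012971) at -1.06. The neuron and photoreceptor lists fell with both scalings.

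In the skin, pigment, clock and Hox lists more members fell than rose, as over all genes. The shares that fell were 53.1%, 34.7%, 46.0% and 38.7%, against 25.4% of all genes. Of 49 tested keratin and skin members 26 fell and 4 rose. The keratin krt13 (LABE_00033805) stood at 204 to 272 TPM with a median of 242 at BW7, against 398 to 542 TPM with a median of 449 at BW6, without overlap (-0.89 ± 0.08, adjusted p = 1.75e-10), and TGM1 (LABE_00053979), which cross-links the outer skin, rose (0.35 ± 0.10, adjusted p = 0.00767). Of 49 tested pigment members 17 fell and 3 rose. Genes named PNP, for purine nucleoside phosphorylase, moved apart, LABE_00028880 at -1.23 ± 0.15 and LABE_00029391 at 1.47 ± 0.11, and a carotene-cleaving BCO1 (LABE_00031873) rose by 1.36. Of 50 tested clock members 23 fell and 2 rose, among them the repressors NR1D2 (LABE_00029231, -1.16 ± 0.17, adjusted p = 4.09e-06) and CRY1 (LABE_00040927, -0.85 ± 0.11, adjusted p = 3.93e-07); the hour of sampling is not given in the labels, so its part was not tested. In the Hox list 12 of 31 tested members fell and none rose by limma, none at an unadjusted p under 0.05 either. With size factors 8 of the 31 fell, against 19.8% of all genes. The difference was -0.65 ± 0.12 for hoxb6a (LABE_00052798). The lens list had 8 of 41 higher and 3 lower, 19.5% and 7.32%, against 11.6% and 25.4% of all genes. In it CRYBB3 (LABE_00011168) had a difference of 1.92 ± 0.18 and CRYAA (LABE_00023318) one of -1.52 ± 0.26.

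Globin genes moved apart. The alpha globin hba (LABE_00033299), looked up after its values had been seen, stood at 3961 to 6082 TPM with a median of 5345 at BW7, against 838 to 2707 TPM with a median of 1294 at BW6. No tank overlapped (1.87 ± 0.35, adjusted p = 7.17e-05), and at BW5 the gene had averaged 4.20 TPM. The globins hba2 (LABE_00055756) and hbb2 (LABE_00055754) stood at 23.5 to 91.3 TPM with a median of 34.1 at BW7, against 119 to 222 TPM with a median of 161 at BW6, and at 14.7 to 77.6 TPM with a median of 24.04 at BW7, against 95.1 to 202 TPM with a median of 131 at BW6. Both fell without overlap (-2.04 ± 0.17 and -2.14 ± 0.18) after means of 4997 and 4915 TPM at BW5. Reads of near-identical globin copies may have been divided among them in a way not given in the sources used here. The transferrin receptor Tfrc (LABE_00063302) and BPGM (LABE_00005339), whose product tunes oxygen release, rose by 1.07 and 1.12 on the log2 scale.

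Liver genes were divided. Of 52 tested plasma protein members 16 rose and 7 fell, 30.8% and 13.5%, against 11.6% and 25.4% of all genes. Transferrin, tf (LABE_00035861), stood at 558 to 1014 TPM with a median of 763 at BW7, against 204 to 326 TPM with a median of 273 at BW6, without overlap (1.51 ± 0.21, adjusted p = 9.71e-07), whereas the liver-secreted Lect2 (LABE_00063507) fell (-1.70 ± 0.32, adjusted p = 9.06e-05). Genes named apoeb, for apolipoprotein E, moved apart, LABE_00047834 at 1.23 ± 0.21 and LABE_00047831 at -1.12 ± 0.15. In the xenobiotic list 30 of 110 tested members rose and 16 fell, 27.3% and 14.55%, against 11.6% and 25.4% of all genes. CYP2J1 (LABE_00054165, 1.96 ± 0.11, adjusted p = 4.8e-14) and GPX7 (LABE_00067896, 1.74 ± 0.14, adjusted p = 9.37e-11) were among those that rose. CYP2J2 (LABE_00025949) was among those that fell, without overlap (-1.20 ± 0.15, adjusted p = 2.26e-07). The retinoid carrier crabp2 (LABE_00028772) rose by 1.50 and the retinoid partner receptor rxrba (LABE_00023246) fell by 0.73. The heat shock list had 23 of 122 members higher and 20 lower (47 and 16 with size factors). These shares were 18.9% and 16.4%, against 11.6% and 25.4% of all genes. Of this list the chaperone Hspa8 (LABE_00023323) fell by 1.05, whereas Dnaja4 (LABE_00011645) rose by 1.26 and HSP90AB3P (LABE_00013192) by 1.32. COX6B1 (LABE_00023667), a subunit of cytochrome oxidase, rose by 1.37 in a respiratory chain list with 12 of 102 higher and 16 lower (16 and 5 with size factors). Of these shares, 11.8% and 15.7%, that of the rises was near the share over all genes. S100A6 (LABE_00023194), a calcium-binding protein, fell by 2.94 and sepm (LABE_00077195) rose by 2.90, both among the largest changes.

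The step was compared between the diets of the live-feed period. In plankton tanks 1806 genes rose (8.20%) and 3537 fell (16.1%), and in control tanks 1157 rose (5.25%) and 2730 fell (12.4%). Of the genes called in each diet, 2874 changed the same way in both, which is 53.8% of the calls in plankton tanks and 73.9% of those in control tanks. By the test of the difference itself, the step differed between diets for 5 genes (0.0227%), with 996 (4.52%) at an unadjusted p under 0.05. The limma fit of BW6 and BW7 alone called 0, with 1394 at an unadjusted p under 0.05 (6.33%). CXCR1 (LABE_00021493), a CXCL8 receptor and the 1 gene of the 5 with a name, was singled out after its values had been seen. It had 1.001, 1.001 and 1.54 TPM in plankton tanks at BW7 against 0.586, 0.907 and 1.55 at BW6, and 0.608, 0.705 and 1.21 TPM in control tanks at BW7 against 2.57, 3.04 and 3.40 at BW6. Its step was 0.15 in plankton and -1.13 in control tanks, a difference of 1.28 ± 0.23 (adjusted p = 0.022).

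Pancreas genes had a median step of 0.73 in plankton tanks and 1.95 in control tanks. For PLA2G1B the step was 1.96 in plankton and 3.54 in control tanks, and the difference was not called (-1.58 ± 0.43, adjusted p = 0.248). By limma 0 of the pancreas genes were called for a difference of the step. By the same test 26 of 43 had an unadjusted p under 0.05, against 4.52% of all genes tested. Cell cycle genes had a median step of 0.69 in plankton and 0.28 in control tanks. Of these 0 were called by limma and 27 of 106 had an unadjusted p under 0.05. Members of a list were measured in the same tanks, so they are not independent tests of a diet difference. FBXO32 fell in both, by 4.88 in plankton and 3.76 in control tanks on the log2 scale.

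**Figure D4:**
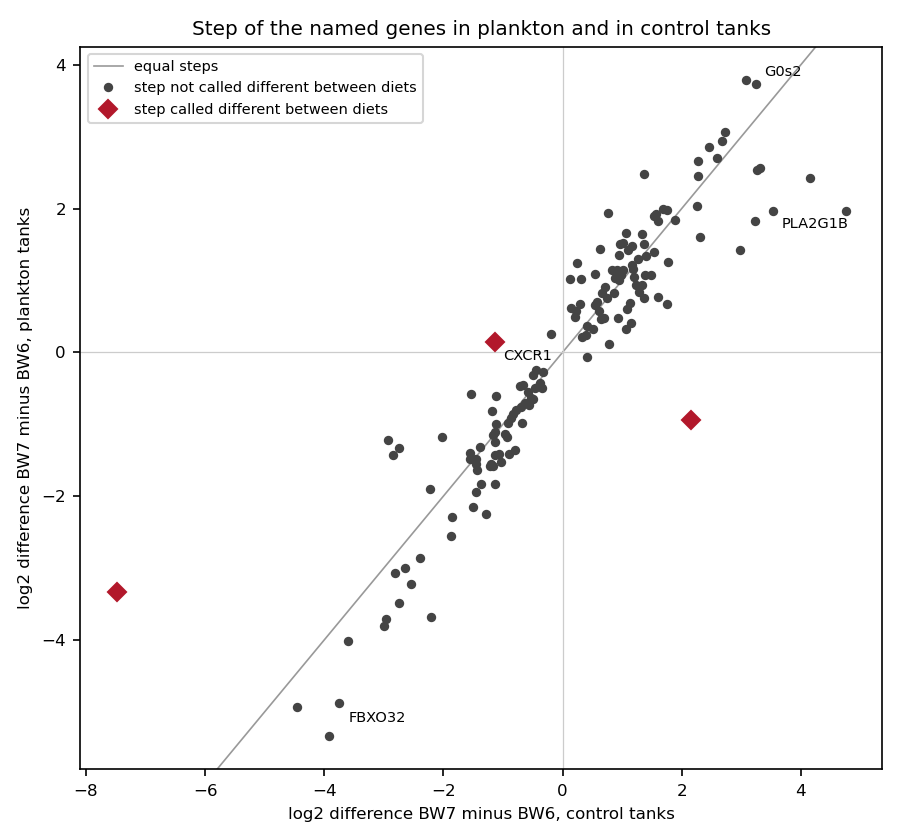
Step of each named gene, as log2 difference BW7 minus BW6, in plankton tanks (vertical axis) against control tanks (horizontal axis), one point per tested gene, with the grey line marking equal steps. Most points lie near the line, and the 3 red diamonds are named genes whose step differed between diets, CXCR1 with steps of 0.15 and -1.13 and 2 genes without a name.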

How the data were processed

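Messenger RNA of pooled whole larvae was sequenced after enrichment with oligo(dT) beads, per the labels' protocols. The deposited table gives TPM per gene for each pool, every column summing to 1000000, and Salmon and edgeR are named in the submitters' processing notes without versions or roles. TPM keeps no read depth, so depth is unknown, no counting interval is given and low genes are less certain. It lists 29932 genes, of which 6058 are named unknown.

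With Python 3.11.15, numpy 2.4.6, pandas 2.3.3 and matplotlib 3.10.9, log2(TPM + 1) was averaged over the 2 pools of a tank, since the tank is the replicate. In R 4.3.3 (data.table in version 1.17.8), limma 3.58.1 with an intensity trend was fitted to 41 libraries, 36 of fed tanks and 5 of unfed BW0 larvae, in 13 groups. The filter kept 22028 genes, those that reached 1 TPM in 3 or more libraries. The contrast was the mean of both diets at BW7 minus that at BW6, with Benjamini-Hochberg adjustment, and a second contrast compared the step between diets. The fit had 28 residual degrees of freedom plus 3.61 from the prior. P-values rest on 1 estimate of spread per gene, shared by all 13 groups. It joins tanks from BW2 to BW7 and the BW0 pools, all of 1 brood stock, rather than BW6 and BW7 alone.

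The same tanks were sampled at both stages, per the labels, so tank was also used as a replicate block. Deviations of the same tank from its group means correlated at -0.033 to 0.022 between BW7 and BW6.

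The 45 gene lists, the members named and the comparison itself were chosen with earlier results of these data known. A name carried by over 20 genes was not used in a list, which affected SAMHD1 with 43 copies. Genes were named by size of change (up to 12 a direction, at least 5 mean TPM, no overlap of tanks), by smallest p within a list (up to 3 a direction), and from fixed look-ups. PHGDH, hba, bglap, the second gene named ddit4, and CXCR1 were added after their values were seen. Some genes that the rule names are not reported here. The alternatives were another pseudocount, 2 filters, size factors, BW6 and BW7 alone, tank as block, single pools, averaging before the log, and leaving out tanks.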

Additional observations from a re-analysis of the deposited data

Results flagged for a closer look

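Tank values of every gene named here were screened, within the 6 tanks of each stage, for a highest or lowest tank whose gap to its nearest neighbour exceeded a share of 0.625 of the group's range on the log2(TPM + 1) scale. Chance gives about 1 in 20 such groups, and 14 of 312 were found. Of the 14, 8 concerned tank B6 at BW6, where it was the lowest. There FBXO32 stood at 17.6 TPM (other tanks 130.4 to 333), klhl38 at 2.67 (37.5 to 91.4), IGFBP1 at 26.6 (62.6 to 102), ddit4 at 43.3 (147 to 232), Tp53inp2 at 75.9 (171 to 201), Ucp2 at 14.5 (32.2 to 55.8), myf6 at 5.33 (9.84 to 13.1) and dio3 at 4.72 TPM (11.9 to 14). In all 8, tank B6 at BW6 still lay above every tank at BW7. For genes named by size of fall, among them FBXO32, klhl38, IGFBP1 and Ucp2, the naming rule of no overlap fixed this in advance. At BW7, tank B10 was the lowest for a red-sensitive opsin at 89.4 TPM (other tanks 117 to 133.5), for GNAT2 at 18.3 (23.2 to 25.7) and for SYP at 14.4 (18.2 to 20.1), and the highest for cenpp at 7.73 TPM (6.84 to 7.18). The remaining values were pax5 at 0.0441 TPM in tank B10 at BW7, listed at 0 in the other tanks, and IgD1234 at 4.26 TPM in tank B9 at BW6 (other tanks 1.78 to 2.37).

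The step from BW6 to BW7 differed between diets for 5 genes by limma's test of the difference (plankton step minus control step). It was 1.28 for CXCR1 (adjusted p = 0.022), and for genes without a name 4.15 for LABE_00061859 (adjusted p = 0.00999) and -3.09 for LABE_00075814 (adjusted p = 0.00195). For 2 further unnamed genes it was 4.63 (adjusted p = 0.00237) and 4.24 (adjusted p = 0.0084). LABE_00061859 had 2.31, 3.07 and 6.21 TPM in plankton tanks and 0.423, 0.455 and 0.591 TPM in control tanks at BW7, and 45.4, 73.1 and 91.7 TPM in plankton tanks and 144, 232 and 968 TPM in control tanks at BW6.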

How the results depend on the processing

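Counts of genes higher and lower at BW7 stayed within 1.5 times the values given in all 28 alternatives, except that size factors called 4731 genes higher. Leaving out tanks, at both stages or at 1, gave 1942 to 2663 higher and 4143 to 5872 lower. The lowest count of falls at a single BW6 tank was without B9, at 4580. With tank as replicate block 2503 genes were higher and 5520 lower. In the block fit of BW6 and BW7 alone, the named genes IgT1234, Tcrd and dio1 lost their calls and 1 Cd74 gene gained one. IgT1234, Tcrd and the Cd74 gene changed in the same way in that fit without the block, and dio1 did not. Tcra lost its call there too. The count of 5 genes whose step differed between diets was unstable: 3 with a pseudocount of 0.1, 12 without a filter, 17 with size factors, 0 with BW6 and BW7 alone, with or without the replicate block, 67 with pool R1 alone, 28 with pool R2 alone, and 3 to 20 when tanks were left out; the cause was not tested. Of 149 called named genes, 131 kept their call in all alternatives. A pseudocount of 0.1 took the call from CD3G, Lck, CD40, TM-IgM, ptprc, 1 CD74 gene, 1 CXCL8 gene, Tcra, Tcrd and LABE_00075814, size factors from rpl5-a, 1 CCL25 gene and Tcrd, and single pools from pomcb, sIgD and Cuzd1 among others. Reversed signs were found for rag2 at -0.05 and sIgT at -0.47 with pool R1 alone, and for sIgT at -0.27 without tank B5. The sign of pIgRlike reversed in 5 of its fits with tanks left out, which ran from -0.09 to 0.14. Those of sIgT ran from -0.27 to 1.15. None of these genes was called in the main fit, with all tanks, both pools and TPM as deposited. With pool R2 alone limma called rag2 (adjusted p = 0.0256) and sIgT (adjusted p = 0.0331) higher, and rag2 was called with size factors too. Without read depth, low genes such as the IgT sequences limit what can be detected.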

Other observations

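By the separate tests in each diet, 4 genes moved in opposite directions in plankton and control tanks, and those with a name are given here after their values were seen. DBH, for the enzyme that makes noradrenaline, changed by 0.41 in plankton and -0.41 in control tanks (LABE_00024495). NLRC3, for an intracellular receptor of innate immunity, changed by -0.45 in plankton and 0.46 in control tanks (LABE_00082393). The test of the difference itself did not call these 2, with adjusted p = 0.173 for DBH and 0.103 for NLRC3. The other two carry no name, and 1 of them is LABE_00075814, described above.

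Spread between tanks of a diet was larger at BW6 than at BW7 for 72.1% of the genes tested. Lens genes had a median step of 0.50 in plankton and -0.63 in control tanks, with 0 of 41 called by limma for a difference of the step and 22 at an unadjusted p under 0.05. Liver plasma protein genes had a median step of -0.09 in plankton and 0.61 in control tanks, with 0 of 52 called and 21 at an unadjusted p under 0.05. Over all genes tested 4.52% had an unadjusted p under 0.05 by limma for this difference. Members of each list shared the same tanks and are not independent tests.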
